A study of Mus musculus with 6 samples.

Results

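The chromatin remodeler ATRX and the proteins that work beside it in heterochromatin were examined as 10 gene rows: ATRX, its partner DAXX, the histone H3.3 genes H3F3A and H3F3B, the H3.3 chaperone gene HIRA, the HP1 genes CBX1, CBX3 and CBX5, the methyltransferase gene SETDB1 and its corepressor TRIM28. Members were chosen by name in the first column of the normalized table. Rows were present for 9 of the 10 names, of 30774 rows in all, and 7 of these entered the test, of 13026 rows tested. CBX1 had no row of that name. A row named MOD1 was not taken in its place, since the reference lists that name as a synonym of Cbx1 and of the malic enzyme gene Me1.

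RNA came from whole testes of C57BL/6 male mice aged 12 days, 3 labelled wild-type and 3 labelled ScAtrxKO, with 1 Illumina MouseWG-6 v2 BeadChip array each. In ScAtrxKO mice a floxed Atrx gene is deleted by a Cre transgene driven by the AMH promoter, which is active in Sertoli cells, so all other testis cells keep the gene. Whether the wild-type animals carried a floxed allele or the Cre transgene, and whether the 3 testes of a genotype came from separate animals, are points not given in the sources used here. The p-values therefore measure the spread between these samples. In bulk testis RNA, fewer cells of a type and less RNA per cell cannot be told apart.

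ATRX is an ATP-dependent remodeler of the SNF2 family that binds histone H3 trimethylated at lysine 9 and, together with the chaperone DAXX, places the replacement histone H3.3 into pericentric and telomeric chromatin. HIRA places the same histone into active genes and promoters. HP1 proteins bind the same methylation mark, which SETDB1 can write where TRIM28, also called KAP1, recruits it through zinc finger proteins. In Sertoli cells ATRX is known as a partner of the androgen receptor.

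Promoter sequences are shown for Daxx, the only member row past the test described below, and for H3f3a and H3f3b, which are separate genes for the same H3.3 protein. They are the RefSeq windows of GRCm38.p6, from 250 bases before to 50 bases after a transcription start, written 5′ to 3′ in the direction of the gene. The Daxx window is that of the first of its listed starts at chr17:33909195-33909494, plus strand. H3f3a lies at chr1:180813556-180813855 and H3f3b at chr11:116024455-116024754, both on the minus strand. Capitals mark every match, on either strand, to the GC box GGGCGG, the CCAAT box CCAAT or the TATA box TATAAA.
Daxx: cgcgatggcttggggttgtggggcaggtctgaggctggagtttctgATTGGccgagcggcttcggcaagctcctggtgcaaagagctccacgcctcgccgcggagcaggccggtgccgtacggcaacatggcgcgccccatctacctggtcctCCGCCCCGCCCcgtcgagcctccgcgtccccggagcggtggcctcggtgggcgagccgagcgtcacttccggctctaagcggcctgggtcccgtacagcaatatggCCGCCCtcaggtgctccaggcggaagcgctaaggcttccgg
H3f3a: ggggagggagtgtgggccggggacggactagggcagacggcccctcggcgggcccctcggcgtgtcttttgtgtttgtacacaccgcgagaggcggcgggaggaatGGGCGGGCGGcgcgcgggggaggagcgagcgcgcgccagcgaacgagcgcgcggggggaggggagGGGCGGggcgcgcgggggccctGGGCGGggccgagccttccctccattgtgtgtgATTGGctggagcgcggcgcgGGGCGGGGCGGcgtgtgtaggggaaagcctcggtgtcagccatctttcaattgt
H3f3b: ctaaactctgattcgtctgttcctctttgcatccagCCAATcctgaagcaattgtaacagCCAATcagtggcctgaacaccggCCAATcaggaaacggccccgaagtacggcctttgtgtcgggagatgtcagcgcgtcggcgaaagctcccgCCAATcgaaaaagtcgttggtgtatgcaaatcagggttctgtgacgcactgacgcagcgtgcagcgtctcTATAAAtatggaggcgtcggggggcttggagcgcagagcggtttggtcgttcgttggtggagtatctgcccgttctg

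The H3.3 promoters differ in these letters. H3f3a held 6 matches to the GC box, some of them overlapping, 1 to the CCAAT box and 0 to the TATA box, while H3f3b held 0, 4 and 1. Daxx held 3, 1 and 0. Over all 32851 promoter windows of this length, 35.7% held the GC box, 37.4% the CCAAT box and 13.6% the TATA box. The windows of H3f3a, Daxx and H3f3b had 39, 33 and 24 CpG dinucleotides, against a median of 7 over all windows. A match describes letters only and says nothing of whether a factor binds.

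The members were detected unevenly, and this decided which of them could be tested. A row counted as detected on an array at a detection p under 0.01, the deposited measure of a signal above the negative controls, and was tested if detected on at least 1 array. DAXX, H3F3A, SETDB1 and TRIM28 were detected on 6 of 6 arrays and H3F3B on 4. HIRA and CBX3 were each detected on 1 array only, a wild-type array in both cases, so their entry into the test depended on a single array of that genotype. ATRX and CBX5 were detected on 0 arrays and were not tested.

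Detection did not follow intensity for CBX3, CBX5 and H3F3B. CBX3, which encodes HP1 gamma, had background-subtracted intensities of 1290, 1372 and 1387 for wild-type, against 1290, 1512 and 1561 for ScAtrxKO testes. Its detection p was 0.198, 0.00106 and 0.327 in wild-type, against 0.176, 0.0261 and 0.127 in ScAtrxKO testes. Of the 434 rows with a mean intensity within 10% of that of CBX3, 90.8% were detected on all 6 arrays. CBX5, which encodes HP1 alpha, had intensities of 100, 117 and 116 in wild-type, against 116, 148 and 122 in ScAtrxKO testes, with a lowest detection p of 0.207, although 75.7% of 569 rows of like intensity were detected on all 6 arrays. H3F3B had its highest detection p, 0.0473, on its brightest array, ScAtrxKO replicate 2 with an intensity of 6628, and 95.7% of 117 rows of like intensity were detected on all 6 arrays. Most detection p-values of the table, 78.2%, were whole multiples of 1 in 936 within 6e-06, with values of 0 counted as multiples. All 6 values were off these steps for 5 member rows (ATRX, H3F3B, HIRA, CBX3 and CBX5), as they were for 18.1% of all rows. The 4 rows detected on every array had a detection p of 0 throughout, which lies on steps of any size. Rows off the steps could still be detected. Ehmt1 and Ehmt2, among the related genes below, were off them throughout and detected on all 6 arrays.

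**Figure D1:**
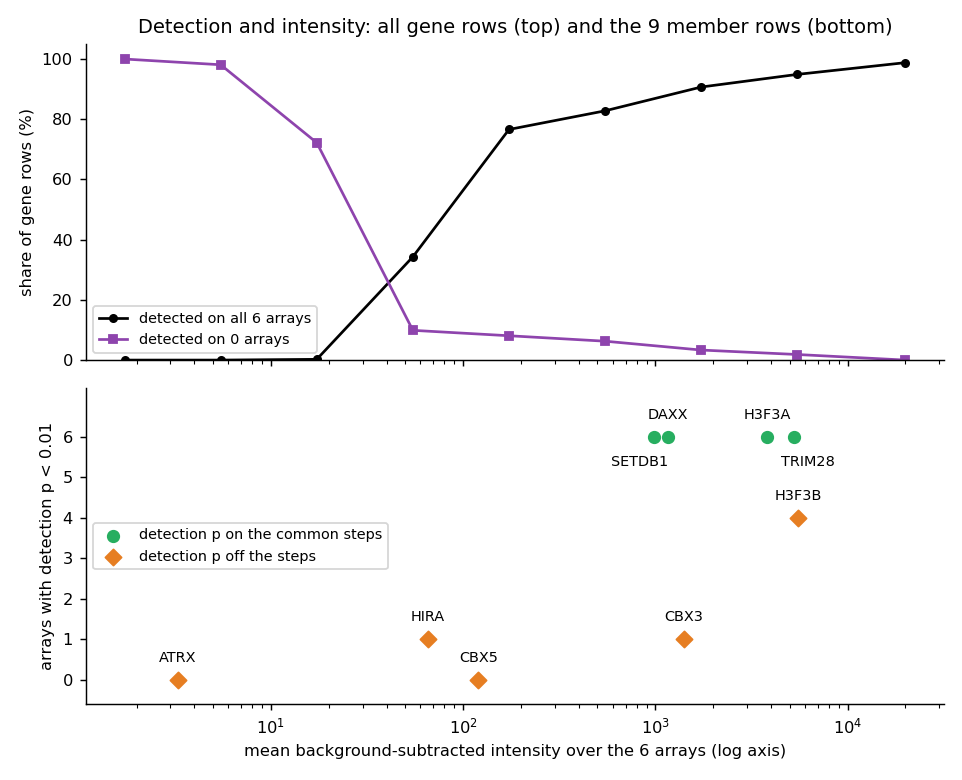
Share of gene rows detected on all 6 or on 0 arrays by mean background-subtracted intensity (top), and the number of arrays on which each of the 9 member rows was detected (bottom). CBX3, at a mean intensity of 1402, was detected on 1 array, whereas DAXX at 1157 and SETDB1 at 984 were detected on 6.

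ATRX itself gave no signal above background in either genotype. Its intensity was 5.60, 2.20 and 2.80 for wild-type, against 2.40, 3.40 and 3.3 for ScAtrxKO testes. All 6 values lay near the background, the genotypes overlapped, and 396 of the 396 rows of like intensity were also undetected on every array. The row therefore does not check the genotype labels. Its probe positions against the floxed segment were not given in the sources used here.

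DAXX, which carries H3.3 to the sites where ATRX acts, was the only member row that passed the test. Its normalized log2 value was 10.150, 10.148 and 10.182 in wild-type, against 10.015, 9.996 and 9.964 in ScAtrxKO testes. Every ScAtrxKO value was below every wild-type value, and the gap exceeded the spread within either genotype. The means were 10.16 ± 0.0192 (SD, n = 3) and 9.99 ± 0.0257 (SD, n = 3), a difference of -0.17 on the log2 scale (standard error 0.039, 95% interval -0.26 to -0.08, adjusted p = 0.0293 from limma). DAXX thus fell by 11% on the variance-stabilized scale, far from the 1.5-fold limit of the study's methods, which is 0.58 on the log2 scale.

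The call of DAXX was not stable. Its adjusted p passed 0.05 in 5 of 15 alternative settings, in a range from 0.0114 to 0.150. The passing settings include the value table of the series, which holds the same values as the main fit and could hardly differ. It was lost when any single array was left out, at adjusted p-values from 0.0562 to 0.0855, while the difference stayed between -0.18 and -0.15.

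The difference of DAXX appeared only relative to the other genes of the same array. Before normalization, its intensity was 1132, 1152 and 1187 in wild-type, against 976, 1276 and 1220 in ScAtrxKO testes, and the means were equal at 1157 ± 28 (SD, n = 3) and 1157 ± 159 (SD, n = 3). Against the wild-type mean, DAXX stood at 0.844, 1.1 and 1.05 on the 3 ScAtrxKO arrays, where the mean of all rows stood at 0.933, 1.25 and 1.22. Its ratio was thus below that of the mean on each of the 3 ScAtrxKO arrays, of which replicates 2 and 3 were brighter as a whole. This was not particular to DAXX, since HIRA (0.775, 0.839 and 0.910) and H3F3A (0.894, 1.21 and 1.19), which did not pass the test, were also below it on all 3 arrays.

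**Figure D2:**
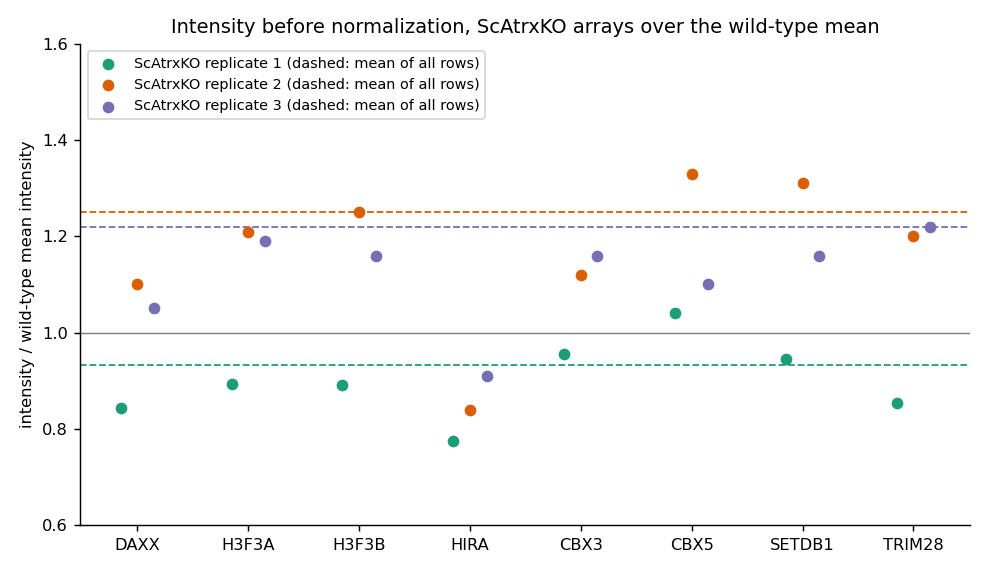
Background-subtracted intensity of each member on the 3 ScAtrxKO arrays divided by its wild-type mean, before normalization. Dashed lines give the same ratio for the mean of all rows (0.933, 1.25 and 1.22). The 3 values of DAXX, HIRA and H3F3A lie below the lines of their arrays, and TRIM28 and H3F3B lie below on 2 arrays and at the line, within rounding, on 1. ATRX, near background, is not drawn.

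Across the 7 tested members, 1 row was lower, where 5.50% of all tested rows were, and 0 were higher, where 7.47% were. None of the 7 reached the 1.5-fold limit as well, against 1.30% of all rows. With the deposited normalization and this filter, the only unadjusted p under 0.05 from limma was also that of DAXX. That of HIRA was 0.0149 and 0.00673 under the log2 scalings described below and 0.0258 without the detection filter, with adjusted p-values of 0.106, 0.0730 and 0.199. Groups did not overlap for 2 of the 7, DAXX and HIRA, both lower in ScAtrxKO testes, where 17.6% of tested rows were lower and 16.2% higher without overlap. The fitted difference was negative for 7 of 7 tested members, against 54.8% of all tested rows, with a median of -0.07 against -0.012. As HIRA and CBX3 passed the detection filter through wild-type arrays alone, the count without overlap, the count of negative differences and this median are descriptions only.

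**Figure D3:**
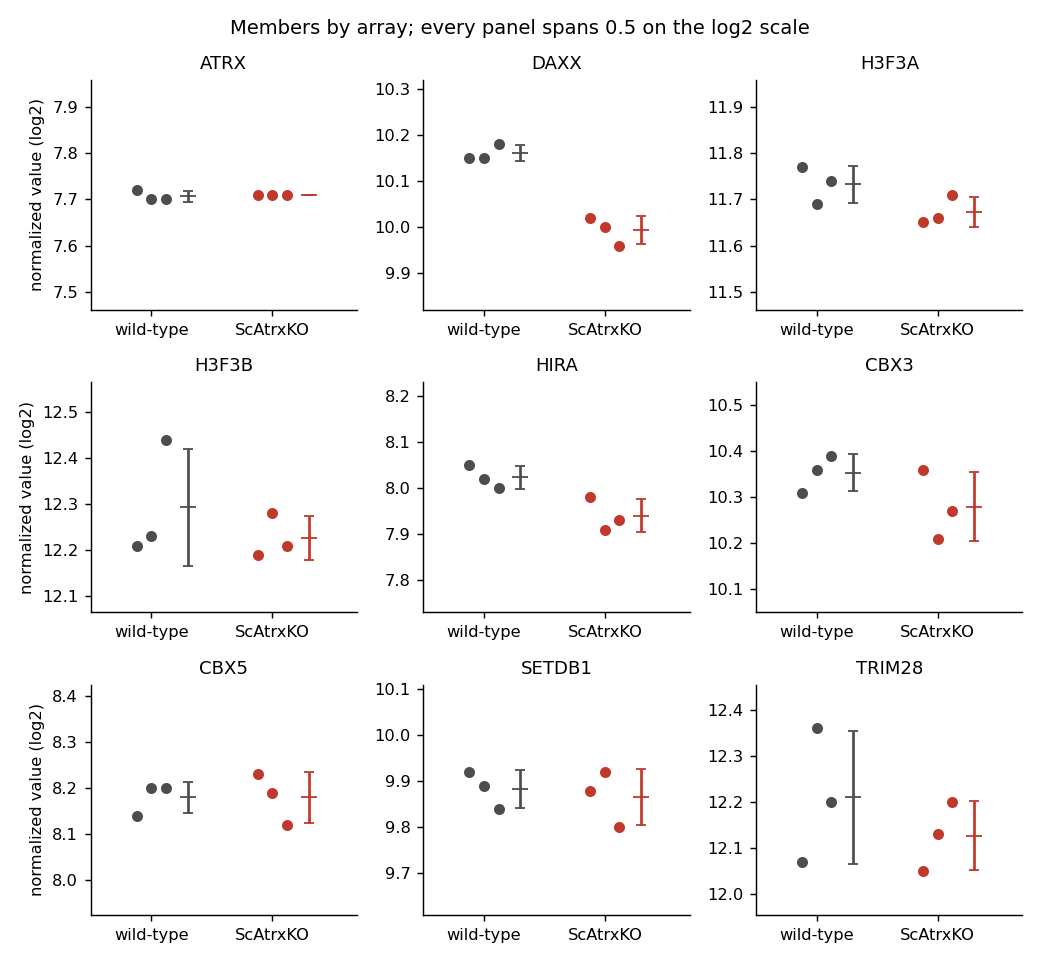
Normalized log2 value of each member row on the 3 wild-type (grey) and 3 ScAtrxKO (red) arrays, with the mean and SD of each genotype beside the points. DAXX and HIRA show no overlap between the genotypes, and the other 7 rows do. ATRX lies at 7.70 to 7.72 on every array, near the background.

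HIRA, the chaperone that deposits H3.3 outside heterochromatin, was a dim row with normalized log2 values of 8.045, 8.018 and 7.999 in wild-type, against 7.977, 7.914 and 7.934 in ScAtrxKO testes. The genotypes were separate, but by a step smaller than the range within either of them. The difference was -0.08 (standard error 0.040, 95% interval -0.17 to 0.01, adjusted p = 0.245), which did not pass. The exact two-sided permutation p of HIRA was 0.1, as it was for DAXX, which is the smallest that 3 arrays against 3 can give. As HIRA passed the detection filter through a single wild-type array, its separation and this p are descriptions only. HIRA is also the member whose size depends most on the scale, since its difference was -0.04 under neqc, -0.44 when plain log2 values were quantile normalized and -0.47 under median scaling, where its adjusted p was 0.0730. Its intensity before normalization was 71.0 ± 4.26 (SD, n = 3) for wild-type against 59.7 ± 4.80 (SD, n = 3) in ScAtrxKO testes.

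The H3.3 genes, H3F3A and H3F3B, did not pass the test. H3F3A had normalized log2 values of 11.77, 11.69 and 11.74 in wild-type, against 11.65, 11.66 and 11.71 in ScAtrxKO testes. The highest ScAtrxKO array overlapped the lowest wild-type array, and the difference was -0.06 (standard error 0.043, 95% interval -0.16 to 0.03, adjusted p = 0.372). H3F3B had 12.21, 12.23 and 12.44 in wild-type, against 12.19, 12.28 and 12.21 in ScAtrxKO testes. Wild-type replicate 3 stood above the other 5 arrays, which covered a common range. The difference of H3F3B was -0.06 (standard error 0.068, 95% interval -0.22 to 0.09, adjusted p = 0.588), and it became 0.011 without wild-type replicate 3. For H3F3A the interval leaves room for a fall to 0.894-fold or a rise to 1.02-fold, and for H3F3B for a fall to 0.858-fold or a rise to 1.07-fold. H3.3 genes have processed copies in the genome, and details of how the probes treat these were not given in the sources used here.

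Among the HP1 genes, CBX3 had normalized log2 values of 10.31, 10.36 and 10.39 in wild-type, against 10.36, 10.21 and 10.27 in ScAtrxKO testes. ScAtrxKO replicate 1 lay within the wild-type range and the other 2 below it. The difference was -0.07 (standard error 0.051, 95% interval -0.19 to 0.04, adjusted p = 0.391). CBX5 had 8.14, 8.20 and 8.20 in wild-type, against 8.23, 8.19 and 8.12 in ScAtrxKO testes, so that the ScAtrxKO arrays spanned the wild-type values on both sides. Its means were 8.18 ± 0.0326 (SD, n = 3) and 8.18 ± 0.0581 (SD, n = 3), with an exact two-sided permutation p of 1.00. Fitted without the detection filter, its 95% interval ran from -0.09 to 0.08, with an adjusted p = 0.994 from limma.

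SETDB1, which methylates lysine 9 of histone H3, showed the smallest difference among the tested members. Its normalized log2 value was 9.92, 9.89 and 9.84 in wild-type, against 9.88, 9.92 and 9.80 in ScAtrxKO testes, with full overlap. The difference was -0.02 (standard error 0.048, 95% interval -0.13 to 0.09, adjusted p = 0.871), and its sign turned under 3 of the alternative settings. TRIM28, the corepressor that brings SETDB1 to its targets, had 12.07, 12.36 and 12.20 in wild-type, against 12.05, 12.13 and 12.20 in ScAtrxKO testes. The wild-type arrays alone differed by 0.293 and enclosed 2 of the 3 ScAtrxKO values. Its difference was -0.08 (standard error 0.077, 95% interval -0.26 to 0.09, adjusted p = 0.528), and the interval leaves room for a fall to 0.834-fold.

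**Figure D4:**
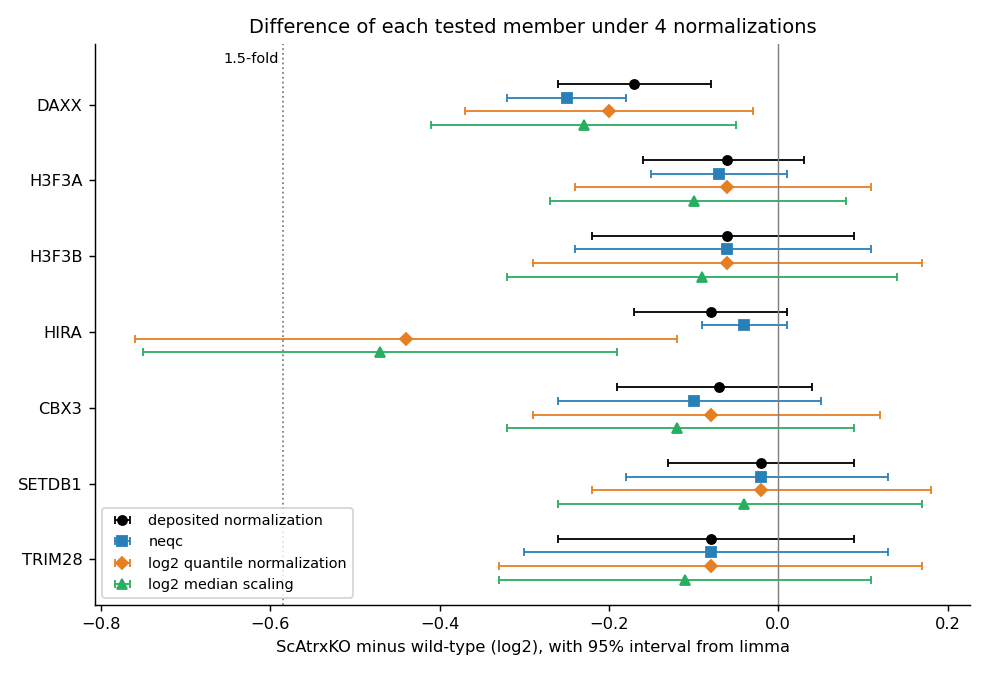
Difference between ScAtrxKO and wild-type testes on the log2 scale for the 7 tested members, with 95% intervals from limma, under the deposited normalization, neqc, log2 values with quantile normalization and log2 values with median scaling. The point of DAXX lies between -0.25 and -0.17 and its interval below 0 in each. HIRA moves from -0.04 to -0.47 with the scale, and the other 5 intervals include 0 throughout.

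The patterns most like each member over the 6 arrays were found among 8232 tested rows whose names match a reference symbol, by Pearson's r of the normalized values, as a description only. For DAXX they were Lsm14b (r = 0.995), which encodes an RNA-binding protein, and Wdr74 (r = 0.995), which encodes a ribosome biogenesis factor. Their own differences were -0.33 and -0.25. For HIRA they were Cdca3 (r = 0.993), a mitotic regulator, and Lsm8 (r = 0.987), a spliceosome component, with differences of -0.08 and -0.25. For H3F3A they were Ankrd13d (r = 0.995) and 2410004B18Rik (r = 0.991), and for H3F3B Nrbf2 (r = 0.993) and Dbp (r = 0.974). For CBX3 they were Shisa2 (r = 0.990) and Shmt2 (r = 0.981), for SETDB1 Hagh (r = 0.978) and Edem2 (r = 0.978), and for TRIM28 Dtx1 (r = 0.990) and Ypel3 (r = 0.980). Rows with an r this high were found for all 7 members, including the 5 whose genotypes overlapped.

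Other genes of the same chromatin machinery were taken from 8 lists with 107 genes, of which 101 had a row and 84 were tested. In ScAtrxKO testes 2 of the 84 were higher (2.38%, against 7.47% of all rows) and 6 lower (7.14%, against 5.50%), 0 reached 1.5-fold, and the median difference was -0.05. The calls were spread over the lists, with at most 2 in any of them. All 8 calls were lost with either log2 scaling, where 1 other gene of the lists was called. The differences themselves kept their sign there and were as large or larger, for example -0.35 for Supt16, -0.28 for Ehmt2 and -0.30 for Lbr with median scaling.

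Of 8 tested genes for H3K9 and H4K20 methyltransferases and cofactors, 1 fell. Ehmt2, which encodes the H3K9 methyltransferase G9a, had normalized log2 values of 9.86, 9.92 and 9.94 in wild-type, against 9.67, 9.67 and 9.79 in ScAtrxKO testes, a difference of -0.20 (adjusted p = 0.0377 from limma). Its partner Ehmt1 had a difference of -0.02 (adjusted p = 0.786), and Suv39h1, the methyltransferase of pericentric heterochromatin, one of -0.05 (adjusted p = 0.557). Of 8 H3K9 demethylase genes, 1 fell. Kdm3a, under its older name Jmjd1a, had 10.19, 10.26 and 10.06 in wild-type, against 10.01, 9.91 and 9.89 in ScAtrxKO testes, a difference of -0.24 (adjusted p = 0.0418). Neither gene overlapped between the genotypes. The call of Ehmt2 held in 7 of 15 alternative settings and in 1 of the 6 that left out an array, and that of Kdm3a in 6 of 15 and 2 of 6. Kdm3a was also lost with neqc (adjusted p = 0.0726) and without the detection filter (adjusted p = 0.0614).

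Of 12 histone chaperone genes, 1 fell. Supt16, which encodes a subunit of the chaperone FACT, had 10.65, 10.70 and 10.72 in wild-type, against 10.36, 10.44 and 10.41 in ScAtrxKO testes, a difference of -0.29 (standard error 0.0436, adjusted p = 0.00555). Its adjusted p passed in 13 of 15 alternative settings, including the 6 that each left out an array, and was 0.0548 with median scaling and 0.0670 with log2 quantile normalization. The replication-coupled chaperone genes Chaf1a and Chaf1b had differences of -0.08 (adjusted p = 0.346) and -0.06 (adjusted p = 0.576).

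Of 11 genes for proteins that work with HP1, KAP1 or the HUSH silencing complex, 1 fell. Lbr, the lamin B receptor, which holds HP1-bound chromatin at the nuclear envelope, had 10.35, 10.41 and 10.35 in wild-type, against 10.19, 10.06 and 10.15 in ScAtrxKO testes, a difference of -0.24 (adjusted p = 0.0168), and its call held in 11 of 15 alternative settings. Of 9 genes for proteins of PML bodies, where DAXX and ATRX gather, 1 fell. It was Usp7, which encodes a deubiquitinase known to bind DAXX. Usp7 had 9.93, 9.95 and 9.98 in wild-type, against 9.76, 9.80 and 9.81 in ScAtrxKO testes, a difference of -0.17 (adjusted p = 0.0298). Pml itself had a difference of 0.06 (adjusted p = 0.388). The call of Usp7, like that of DAXX, was lost when any single array was left out, at adjusted p-values from 0.0570 to 0.0882.

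Of 20 genes for other remodelers of the SNF2 family, 0 passed. Of 9 Polycomb genes, 1 rose. Ring1, a ubiquitin ligase of Polycomb complexes, had 9.13, 9.16 and 9.21 in wild-type, against 9.39, 9.37 and 9.31 in ScAtrxKO testes, a difference of 0.19 (adjusted p = 0.0295). Its call held in 7 of 15 alternative settings and in 2 of the 6 that left out an array, and its adjusted p was 0.0648 with the replicate number as a block. Of 7 genes for other histone variants, 1 rose and 1 fell. H1f0, which encodes the linker histone of cells that have stopped dividing, rose from 8.46, 8.29 and 8.34 to 8.59, 8.70 and 8.65, by 0.29 (adjusted p = 0.0152). The size for H1f0 depended on the scale, at 0.66 under both log2 scalings (adjusted p = 0.0541 and 0.0555) and 0.22 with neqc, and its call held in 11 of 15 alternative settings. H2afv, which encodes a form of H2A.Z, fell from 11.74, 11.62 and 11.73 to 11.46, 11.49 and 11.36, a difference of -0.26 (adjusted p = 0.0196), and its call held in 10 of 15.

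**Figure D5:**
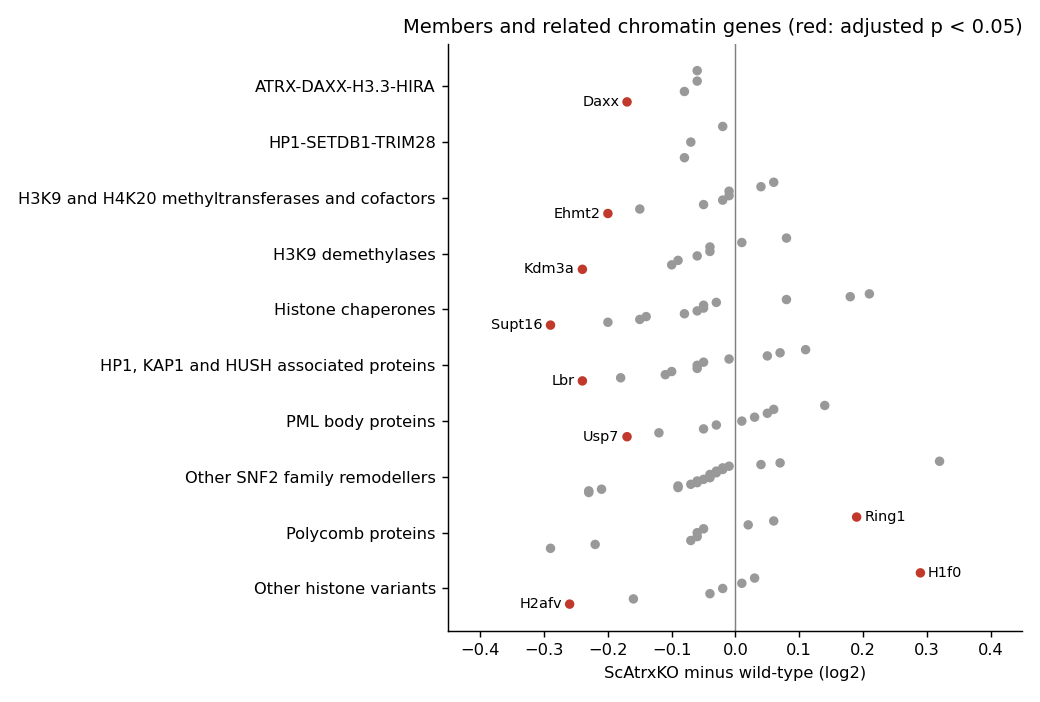
Difference between ScAtrxKO and wild-type testes on the log2 scale for each tested gene, 1 point a gene, in the members (top 2 rows) and in the 8 lists of related chromatin genes. Red points, with names, passed an adjusted p of 0.05, and all 9 of them lie within 0.29 of 0.

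Markers of several cell types moved with genotype beside these genes. Of all tested rows 7.47% were higher and 5.50% lower, and several marker lists hold few tested rows. Of 9 tested macrophage markers 9 rose, with a summed intensity of 2068 to 2999 on wild-type and 5231 to 7921 on ScAtrxKO arrays and Cd163 undetected. Of 7 endothelial markers 5 rose (1060 to 1086 and 1472 to 2039, with Kdr undetected). Of 6 Leydig cell markers 3 rose (2832 to 4057 and 4521 to 10714). Of 2 peritubular myoid markers 1 rose (5956 to 6910 and 6054 to 7375, with Myh11, Cnn1 and Tagln undetected). It was Des (0.61), while Acta2 had a difference of -0.18 (adjusted p = 0.106 from limma). Of 3 erythroid markers 1 rose (7507 to 8901 and 8603 to 15285). Of 8 markers of spermatogonia 4 fell (8626 to 8954 and 6753 to 8901, with Ddx4 undetected). Their differences were -0.71 for Sall4, -0.36 for Uchl1, -0.35 for Kit and -0.17 for Nanos3. Those that did not pass were Dazl (-0.23), Zbtb16 (-0.14), Gfra1 (0.02) and Stra8 (0.27, adjusted p = 0.110 from limma). Of 6 meiotic markers 2 fell (9403 to 11206 and 8883 to 11334, with Sycp3, Dmc1, Spo11 and Hormad1 undetected). Of 9 Sertoli cell markers 2 rose and 0 fell (33210 to 35621 and 34316 to 45388, with Kitl and Gdnf undetected). Those that rose were Inha by 0.56 (adjusted p = 0.00431) and Trf by 0.39 (adjusted p = 0.0134). Wt1 and Clu, also on the Sertoli cell list, had no row of that name. The defining Sertoli cell genes Sox9 and Amh, both detected, had differences of -0.15 (adjusted p = 0.213) and 0.06 (adjusted p = 0.777). Some called markers were not detected on every array. Csf1r, Adgre1, Lhcgr, Nanos3 and Sall4 were detected on 3 of 6 arrays, Sycp2 on 2, Alas2 on 4 and Kit on 5. Such rows may have entered the test only through the genotype where they were high, so the marker counts are descriptions only. Undetected refers to the detection p alone. Spo11, Myh11, Gdnf and Ddx4 had wild-type mean intensities of 421, 594, 191 and 173, with detection p-values off the common steps. Fitted without the detection filter, Spo11 had a difference of -0.51 (adjusted p = 0.0103 from limma), without overlap. Those of Myh11, Gdnf and Ddx4 were -0.11, 0.09 and -0.13 and did not pass. The part of these shifts in the difference of DAXX and of the related genes was not tested. Sums are over all rows of a list, undetected ones included, of intensities before normalization, when the arrays differed in brightness, with mean intensities of 368 to 381 for wild-type, against 350 to 469 for ScAtrxKO testes.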

How the data were processed

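RNA of 3 wild-type and 3 ScAtrxKO testes was hybridized to Illumina MouseWG-6 v2 BeadChip arrays. The authors used GenomeStudio to subtract background and average probes into gene rows, and deposited an intensity and a detection p-value per row and array. They also deposited log2 values after variance stabilization and quantile normalization in lumi. Versions are not given in the sources used here. Deposited columns named WT and M were taken as the samples of that genotype and number. The deposited table of the authors' own fold changes and p-values, and their GO sheets, were not used.

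The log2 values of rows with a detection p under 0.01 on at least 1 array were fitted with limma 3.58.1 in R 4.3.3 (lmFit and eBayes, genotype only), with Benjamini-Hochberg adjustment over all 13026 rows and calls at an adjusted p under 0.05. Rows were matched to lists by symbol or older symbol. The members and lists were chosen with earlier results of these data known. The text names every member, up to 4 called genes of each list and the 2 rows most correlated with each tested member. Other genes of the lists and markers are named beside them for context, chosen after their values were seen. Single rows were compared by exact permutation tests. The procedure was tested on simulated data. The planted differences were larger than those of the called members and related genes, so the simulation does not cover the sizes seen here. Alternatives were neqc (offset of 16), log2 intensities floored at 1 with quantile normalization or median scaling, the value table of the series, stricter and absent detection filters, robust estimation with an intensity trend, array weights, a replicate block and leaving out each array. The value table of the series, of 30767 rows, differed by 0 from the normalized table in the rows they share. That setting therefore nearly repeats the main fit, though it is counted among the alternative settings of every gene. neqc was run on intensities that were already background-subtracted. Slide positions were not used here. Columns of unmapped samples numbered 0. The number of arrays limits the precision.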

Additional observations from a re-analysis of the deposited data

How the results depend on the processing

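The count of called members was 1, that of DAXX. It was 0 with an intensity trend and robust estimation (adjusted p of DAXX 0.1), with log2 quantile normalization (0.150), with median scaling (0.125), with the replicate block (0.0657) and without any single array (0 to 0). It stayed at 1 with neqc, array weights, the series' value table and the other detection filters. No member reached 1.5-fold with an adjusted p under 0.05 in any setting. The 8 related calls became 1 with either log2 scaling, in both cases none of the 8, and 2 to 9 when single arrays were left out. The lowest counts were 2 (wild-type replicate 2 or ScAtrxKO replicate 2 left out), 3 (wild-type replicate 1) and 5 (ScAtrxKO replicate 1). With the replicate block 7 related genes were called, and 2 of the 8 were lost. Deviations of same-numbered arrays correlated at 0.003, 0.047 and 0.080, against -0.070 to 0.038 for arrays with different numbers. With 3 arrays per genotype these values cannot decide whether equal numbers mark paired samples, which was not tested. Leaving out single arrays moved the difference of H3F3B between -0.11 and 0.011 (wild-type replicate 3 left out) and that of SETDB1 between -0.043 and 0.017 (ScAtrxKO replicate 3), with 0.004 when wild-type replicate 1 was dropped. SETDB1 was also at 0.002 with array weights. The causes were not tested. Rows near background, such as ATRX, have no usable fold, as its difference was 0.013 after log2 quantile normalization but -0.338 after median scaling.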

Other observations

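Of the related chromatin genes, 17 rows were detected on 0 arrays and not tested, and 3 of these had a wild-type mean intensity above 100. All 3 had detection p-values off the common steps on every array. Npm1, a nucleolar histone chaperone, had an intensity of 5438 ± 438 (SD, n = 3) for wild-type against 5957 ± 862 (SD, n = 3) in ScAtrxKO testes, and Rad54l, a recombination helicase of the SNF2 family, 326 ± 24.0 and 352 ± 47.0. Fitted without the detection filter, their log2 differences were -0.08 (adjusted p = 0.713 from limma) and -0.05 (adjusted p = 0.517). Cbx6, a Polycomb chromobox gene, had 350 ± 19.5 and 586 ± 137, did not overlap between the genotypes, and was higher by 0.32 on the log2 scale in that fit (adjusted p = 0.0292).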
